A study of Mus musculus with 5 samples.

Results

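The Hoxc cluster of the mouse was described here as the CpGs of chr15:102745000-102875000 in build mm9 that lie outside CCGG, read in 5 libraries of reduced representation bisulfite sequencing (RRBS) from embryonic stem (ES) cells. The stretch was set by coordinates around the genes, and it holds Hoxc13, Hoxc12, Hoxc11, Hoxc10, Hoxc9, Hoxc8, Hoxc6, Hoxc5 and Hoxc4 in that order. It contained 404 of the 598336 such CpGs that had a read in at least 1 library. RRBS sequences short CpG-rich fragments released by MspI, an enzyme that cuts CCGG. Bisulfite turns cytosines without a methyl group into bases read as T, and the percentage of reads still showing C at a CpG is its methylation level. CpGs inside CCGG, the cutting site itself, were left out because repair of the cut ends can place a cytosine there that was not in the genome.

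Each genotype was 1 library. Fbxl10 T/T ES cells, homozygous for an allele written T that the labels do not describe, were of strain C57BL/6J, grown in serum with leukemia inhibitory factor (LIF) on inactivated fibroblast feeders that were removed before use, and harvested at passage 17. Ring1B -/-, Eed -/- and Ezh2 -/- ES cells carried homozygous loss of the named gene and were grown in serum with LIF, with no strain, passage or feeders given. The WT cells shared strain, feeders, medium and passage with Fbxl10 T/T. Strain, passage and culture therefore cannot be told apart from genotype wherever a Polycomb mutant enters a comparison. The tables hold DNA methylation, so the ES cell label could not be checked against marker expression. With 1 library for each genotype, every p-value below compares the reads of 2 libraries and carries no spread between cultures.

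Hox genes encode homeodomain transcription factors that give cells their position along the head-to-tail axis of the embryo, and their order in a cluster follows the order of their expression along that axis. In ES cells the clusters are CpG-rich, silent and covered by Polycomb proteins. Ring1B is the catalytic subunit of Polycomb repressive complex 1 and attaches ubiquitin to histone H2A. Ezh2 is the methyltransferase of Polycomb repressive complex 2, which acts on histone H3, and Eed is a subunit it needs. FBXL10, also called KDM2B, binds unmethylated CpG-rich DNA through its CXXC domain and brings a variant form of Polycomb repressive complex 1 to it. The study asks, by its title, about FBXL10 as a protection of Polycomb targets against hypermethylation, so Fbxl10 T/T is compared with WT first and the Polycomb mutants follow.

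Read depth set what could be seen. The CpGs of the cluster held 9632 reads in the Fbxl10 T/T library (median 24 per CpG), 708 for Ring1B -/-, 798 for Eed -/- and 762 for Ezh2 -/- (median 3 for each), and 17638 for WT (median 42). Over all CpGs, those inside CCGG included, the sums were 27338258 reads for Fbxl10 T/T, between 1766681 and 1942248 for the Polycomb mutants and 43079673 for WT. A read that covers several CpGs counts at each. Intervals below are 95% Wilson intervals for a level and Newcombe intervals for a difference, and they cover counting error only. They treat counts summed over CpGs as independent, as Fisher's exact test on summed reads does. Where neighbouring CpGs share reads, these intervals are therefore too narrow and the p-values too small. Where 0 reads showed C, the level that 3 such reads of the total would give is printed as the limit, which is too low where CpGs share reads.

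3 short stretches, spelled base by base by the sequence contexts of the tables (mm9, + strand), show the range of what was found. In each, capitals mark the CpGs tested, which had at least 10 reads in Fbxl10 T/T and in WT. The first stretch, chr15:102807651-102807719, lies in the window with the largest rise in the cluster, and the second, chr15:102785580-102785656, in a CpG-dense window that also rose. The third, chr15:102812452-102812523, lies in the CpG-dense window with the smallest difference.
Largest rise: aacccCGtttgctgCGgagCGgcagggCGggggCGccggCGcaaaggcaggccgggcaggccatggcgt
Dense, rose: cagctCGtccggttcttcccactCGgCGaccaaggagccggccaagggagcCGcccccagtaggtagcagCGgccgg
Smallest difference: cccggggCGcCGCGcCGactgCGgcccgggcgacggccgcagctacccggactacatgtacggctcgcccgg
The 6 tested CpGs of the first stretch averaged 64.6% methylated in Fbxl10 T/T, against 3.67% in WT. The 5 of the second averaged 56.3% in Fbxl10 T/T, against 2.94% in WT. The 5 of the third averaged 11.4% in Fbxl10 T/T, against 4.16% in WT. All 3 stretches were thus nearly unmethylated in WT, and they ended far apart in Fbxl10 T/T.

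Nearly the whole measured cluster was more methylated in Fbxl10 T/T than in WT. Of its 21 windows of 1 kb with at least 5 tested CpGs, 18 rose and 0 fell, where a window was called when its level, the mean over its CpGs, differed by at least 20 percentage points and its summed reads passed Fisher's exact test (two-sided) at 0.05 after Benjamini-Hochberg adjustment over all windows. Over all 17192 windows tested, 25.2% rose and 1.66% fell. The cluster's windows averaged 49.0% ± 16.7 in Fbxl10 T/T and 11.3% ± 10.6 in WT (SD over 21 windows), a difference of 37.7 points. The median difference was 39.2 points in the cluster and 0.323 points over all windows tested. All 21 windows were higher in Fbxl10 T/T, including the 3 that were not called, and 10 of them exceeded 50%. Levels ran from 7.04% to 76.3% in Fbxl10 T/T and from 0.656% to 37.0% in WT, so the ranges overlapped.

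**Figure D1:**
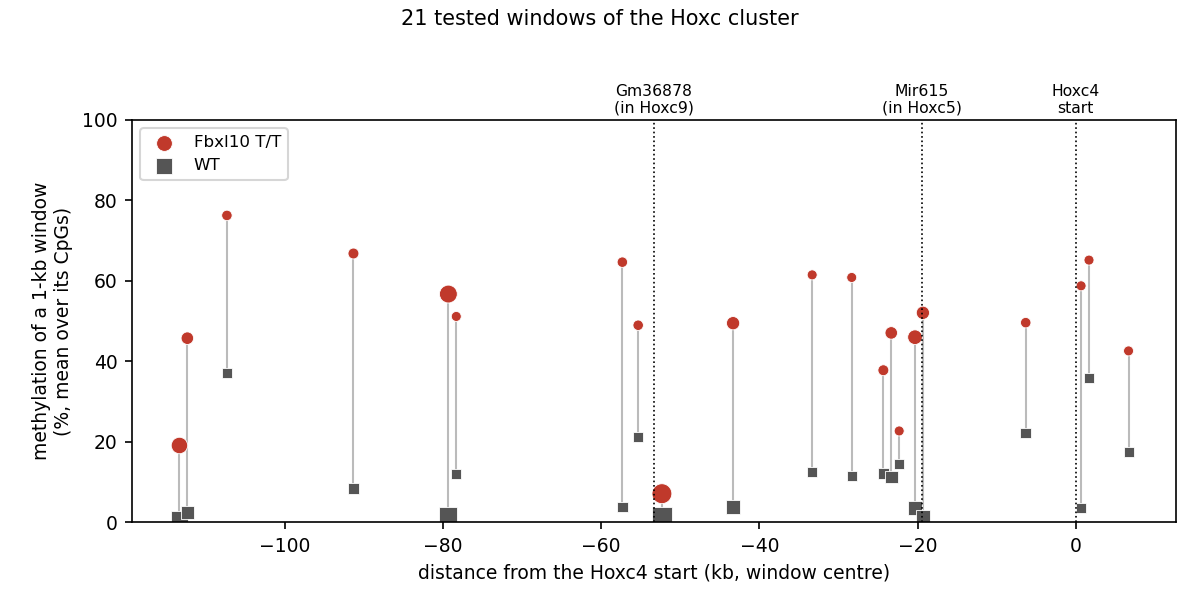
Methylation level of each of the 21 tested 1-kb windows (percent, mean over its CpGs) by distance of the window centre from the Hoxc4 start in kb, with Fbxl10 T/T as red circles, WT as grey squares, and marker area growing with the number of CpGs. Dotted lines mark the 3 starts or sequences that could be placed. All 21 red circles lie above their grey squares, and the window with 36 CpGs beside the Gm36878 start, at 7.04% against 1.26%, is the low point.

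Windows rose in each class of WT level. Of the 10 windows under 10% in WT, 8 rose, and the 10 averaged 46.6% in Fbxl10 T/T against 3.0% in WT; 20.8% of all windows of that class rose. Of the 9 windows at 10 to 30% in WT, 8 rose, and the 9 averaged 46.9% in Fbxl10 T/T against 14.9% in WT; 73.5% of all windows of that class rose, so this count stands nearer to its background. Both windows above 30% in WT rose, to a mean of 70.7% in Fbxl10 T/T against 36.5% in WT; of all 1432 windows of that class 20.4% rose and 19.1% fell. Across the 21 windows the level in Fbxl10 T/T was loosely related to that in WT (Spearman's rho 0.31, Pearson's r 0.40), as a description only, because the windows share 2 libraries and neighbouring fragments.

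8 of the windows that rose differed most. The window chr15:102807001-102808000 stood at 64.6% ± 8.67 in Fbxl10 T/T and 3.67% ± 2.7 in WT (SD over 6 CpGs; 260 and 688 reads), a difference of 61.0 points (adjusted p = 3.67e-98, Fisher's exact test). The window at 102773001 stood at 66.8% ± 15.8 in Fbxl10 T/T and 8.35% ± 9.56 in WT (7 CpGs), and that at 102865001, beside the Hoxc4 start, at 58.8% ± 16.1 in Fbxl10 T/T and 3.51% ± 1.77 in WT (5 CpGs). The CpG-dense window at 102785001 reached 56.7% ± 19.6 in Fbxl10 T/T, against 1.62% ± 2.29 in WT (28 CpGs). In each of these 4 windows the difference exceeded the sum of both SDs over CpGs. The windows at 102845001, 102836001, 102831001 and 102821001 followed, with 52.0%, 60.8%, 61.5% and 49.5% in Fbxl10 T/T, against 1.32%, 11.4%, 12.4% and 3.76% in WT. Adjusted p-values over the 8 windows lay between 1.14e-273 and 1.52e-19 (Fisher's exact test), and the largest of them belonged to the window with the fewest reads, 111 in Fbxl10 T/T and 220 in WT.

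The genes could be set along these windows only in part, because the annotation at hand is of build GRCm38.p6 and the tables are in mm9. Reference sequence was therefore matched to the letters spelled by the tables, which placed the Hoxc4 promoter, the start of Gm36878, a long noncoding RNA that the annotation puts inside Hoxc9, and mature miR-615-5p, a microRNA inside Hoxc5. The starts of the other 8 Hoxc genes were not placed, and those genes are read here by neighbour order alone. Gm36878 is on the - strand, so it runs from its start back into the stretch called before Gm36878 below. The stretch before Gm36878 holds Hoxc13, known for its role in hair and nail differentiation, Hoxc12 and Hoxc11, Hotair, a long noncoding RNA transcribed between them, Hoxc10, which acts in lumbar motor neurons, Mir196a-2 and part of Hoxc9, which acts in thoracic motor neurons. There 7 of 8 windows rose, with means over all 8 of 53.7% in Fbxl10 T/T and 10.9% in WT. The stretch between Gm36878 and Mir615 holds the rest of Hoxc9, Hoxc8, which acts in brachial motor neurons, Hoxc6, a gene of limb-level motor neurons, and part of Hoxc5. There 6 of 8 windows rose, with means over all 8 of 41.5% in Fbxl10 T/T and 8.73% in WT. In the last stretch, with the rest of Hoxc5 and Hoxc4, all 5 windows rose, with means of 53.6% in Fbxl10 T/T and 16.0% in WT. The rise was thus present from the posterior genes of the cluster to its anterior end, with the lowest Fbxl10 T/T mean in the middle stretch, which contains the window beside Gm36878. Outside the cluster, 0 windows could be tested in the 100 kb before it, and 2 of 3 rose in the 100 kb after it.

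Hoxc4, the most anterior gene of the cluster, is the only member whose start could be placed. Its RefSeq promoter (GRCm38.p6 table), 250 bases before to 50 after the start, matched mm9 at chr15:102864576-102864875 on the + strand, with 28 letters matched, 0 mismatched, and at most 3 at any other place. It is shown because the nearest tested CpGs begin just beyond it, and capitals mark the letters the tables spell.
Hoxc4 promoter: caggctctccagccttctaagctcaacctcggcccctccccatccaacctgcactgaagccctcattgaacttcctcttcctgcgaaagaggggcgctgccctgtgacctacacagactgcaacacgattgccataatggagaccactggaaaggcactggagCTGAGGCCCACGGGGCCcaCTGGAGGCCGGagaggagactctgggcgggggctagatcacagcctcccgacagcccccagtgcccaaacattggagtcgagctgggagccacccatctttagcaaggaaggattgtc
Of its 9 CpGs, 1 lies inside CCGG and was left out. None of the others reached 10 reads in both libraries, and the first tested CpG lay 204 bases after the start. Within 1000 bases on both sides of the start, the 5 tested CpGs averaged 58.8% ± 16.1 in Fbxl10 T/T (156 reads) and 3.51% ± 1.77 in WT (419 reads; SD over CpGs), a rise of 55.2 points (adjusted p = 5.01e-50, Fisher's exact test). These 5 CpGs all lie after the start and are the same CpGs and reads as in the window at 102865001. With all reads within 1000 bases of the start summed, over the CpGs each library covered, Fbxl10 T/T stood at 62.9% of 159 reads (95% interval 55.2 to 70.02). Ring1B -/- showed 0 of 27 methylated reads, which allows a level of up to 11.1%, Eed -/- 0 of 26, which allows up to 11.5%, Ezh2 -/- 14.3% of 14 reads (4.01 to 39.9), and WT 3.72% of 457 reads (2.34 to 5.88). The reads of each Polycomb mutant were summed over 6 CpGs, and 1 read can count at several of them. Their limits are therefore too low and their intervals too narrow. As computed, the Fbxl10 T/T interval overlapped with none of the other 4, and at this depth the 3 Polycomb mutants could not be told from WT.

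Mir615, inside Hoxc5, gave a second fixed point. All 22 letters of mature miR-615-5p matched chr15:102845357-102845378, and it is shown in its stretch of the cluster, chr15:102845331-102845382, to place the CpGs that were read. In the first line capitals mark the tested CpGs, in the second the mature 5p sequence, and in the third, the RefSeq mature RNA, its seed (bases 2 to 8).
Mir615 stretch, tested CpGs: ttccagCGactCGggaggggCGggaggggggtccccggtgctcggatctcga
Mir615 stretch, mature 5p: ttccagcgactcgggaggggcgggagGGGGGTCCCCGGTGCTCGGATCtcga
mmu-miR-615-5p: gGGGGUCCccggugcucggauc
The 3 tested CpGs just before the mature sequence lay between 18.4% and 36.6% in Fbxl10 T/T, against a mean of 0.738% in WT. Within 500 bases on both sides, levels were summed over the CpGs each library covered. They were 46.2% of 513 reads in Fbxl10 T/T (41.9 to 50.5), 2.38% of 42 reads in Ring1B -/- (0.422 to 12.3), 4.44% of 45 reads in Eed -/- (1.23 to 14.8), 0 of 66 reads in Ezh2 -/-, which allows up to 4.55%, and 0.727% of 963 reads in WT (0.353 to 1.49). The Fbxl10 T/T interval again lay above all the others. The 66 reads of Ezh2 -/- were summed over 11 CpGs, so its limit is too low where these share reads. In the 1-kb window that holds it, 12 of the 13 tested CpGs rose in Fbxl10 T/T.

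The smallest differences lay in 2 windows that were not called. At 102842001 the level was 22.6% ± 19.3 in Fbxl10 T/T (169 reads) and 14.4% ± 11.1 in WT (224 reads; SD over 5 CpGs), a difference of 8.26 points, and it was the only tested window of the cluster that did not pass on its reads (adjusted p = 0.111, Fisher's exact test). The other stayed lowest of all. At chr15:102812001-102813000 the level was 7.04% ± 4.69 in Fbxl10 T/T (1954 reads) and 1.26% ± 2.48 in WT (3053 reads; SD over 36 CpGs), a difference of 5.78 points. With this many reads its adjusted p was 3.44e-26 (Fisher's exact test), yet it missed the size threshold, and 0 of its 36 CpGs were called. Single CpGs ranged from 0% to 18.1% in Fbxl10 T/T and from 0% to 11.3% in WT. The tested CpGs span 384 bases, from 697 to 1080 bases from the Gm36878 start, on the side that runs towards Hoxc8. It was the window with the most tested CpGs in the cluster. Of all 5198 windows with at least 20 CpGs and under 10% in WT, 80.3% stayed within 10 points and 17.1% rose, so a small difference is the common outcome for windows of this kind.

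CpG number alone did not sort the windows by their difference. The other 2 windows with more than 20 tested CpGs were at 102751001 and 102785001, and the first ended at 19.03% ± 6.63 in Fbxl10 T/T (1027 reads) and 0.656% ± 1.11 in WT (1799 reads), a difference of 18.4 points just under the 20-point threshold (adjusted p = 2.41e-75, Fisher's exact test). Of its 23 CpGs, 5 rose, and all 23 lay between 5% and 29.5% in Fbxl10 T/T. In the second, 25 of 28 CpGs rose. Over the 21 windows the number of CpGs and the difference had a Spearman's rho of -0.03 and a Pearson's r of -0.25, again as a description. For the number of CpGs and the Fbxl10 T/T level these were -0.38 and -0.57, so windows with more CpGs tended to end lower. The 8 windows with 10 or more CpGs averaged 40.4% in Fbxl10 T/T and 3.21% in WT (6 rose), and the 13 with 5 to 9 CpGs 54.3% in Fbxl10 T/T and 16.2% in WT (12 rose).

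Within the window at 102785001 the level changed over short distances. Its first 12 tested CpGs, chr15:102785181-102785358, averaged 69.8% in Fbxl10 T/T (52.2 to 79.2) and 0.342% in WT. The middle 8, chr15:102785450-102785525, averaged 31.0% in Fbxl10 T/T (17.9 to 47.4) and 2.18% in WT. The last 8, chr15:102785553-102785650, averaged 62.8% in Fbxl10 T/T (47.1 to 80) and 2.96% in WT. The middle CpGs of the Fbxl10 T/T library thus sat below all those on both sides except the lowest of the last group, while WT was low throughout. The division into 3 was made after the values were seen and was not tested.

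**Figure D2:**
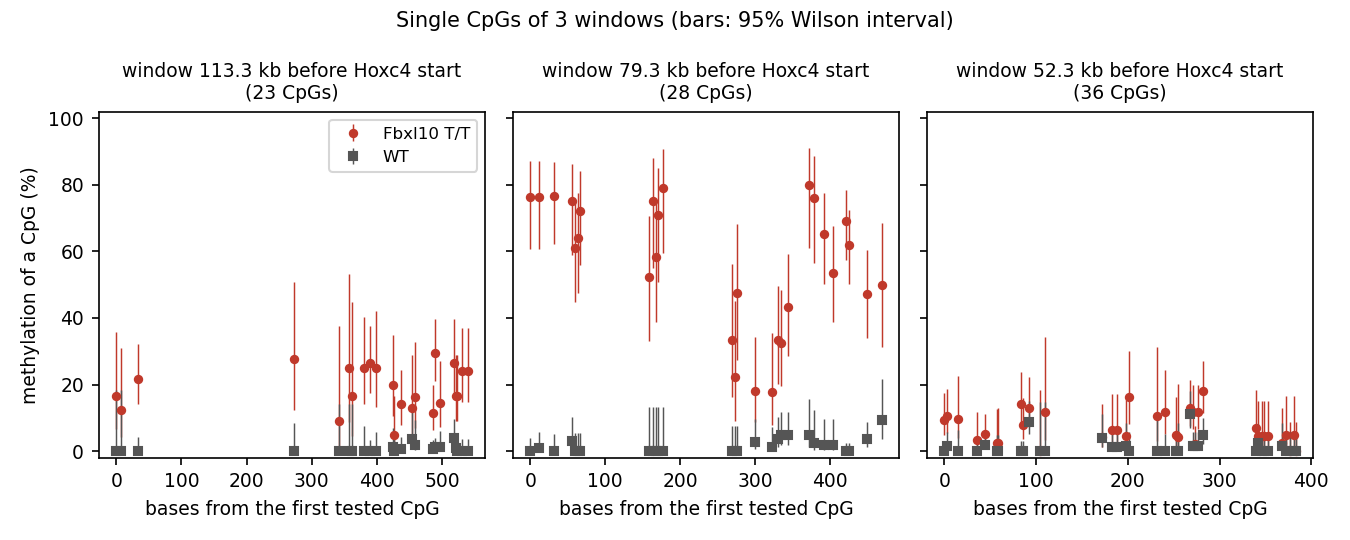
Methylation of single CpGs (percent, with 95% Wilson intervals) in the 3 windows with more than 20 tested CpGs, by distance in bases from the first tested CpG, with Fbxl10 T/T in red and WT in grey. Fbxl10 T/T lies between 5% and 29.5% in the left panel, between 17.9% and 80% with a dip in the middle one, and between 0% and 18.1% in the right one.

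Single CpGs showed the same pattern as the windows. Of 255 CpGs tested, 146 rose and 1 fell at 25 points or more and 0.05 after adjustment over 368305 CpGs (Fisher's exact test), where 16.5% of all CpGs rose and 4.35% fell. With every CpG cut down to 10 reads, 18 CpGs passed as rises and 0 as falls. The share of all CpGs that passes at that depth was not computed, and the 16.5% above holds for full depth only. A further 11 of the full set differed by at least 25 points without passing the test. In all, 242 of the 255 were higher and 10 lower in Fbxl10 T/T, with a median difference of 34.4 points. The median CpG stood at 45.5% in Fbxl10 T/T (quartiles 18.2 and 62.6) and 3.11% in WT. In Fbxl10 T/T 13.3% of the CpGs were under 10% methylated, 22.7% at 10 to 30%, 47.8% at 30 to 70% and 16.1% at 70% or more. In WT these shares were 74.5%, 20%, 5.10% and 0.392%. Intermediate levels were therefore the most frequent in Fbxl10 T/T, whereas over all CpGs tested 60.4% were under 10% and 18.5% at 30 to 70% in that library, against 76.0% and 4.33% in WT.

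**Figure D3:**
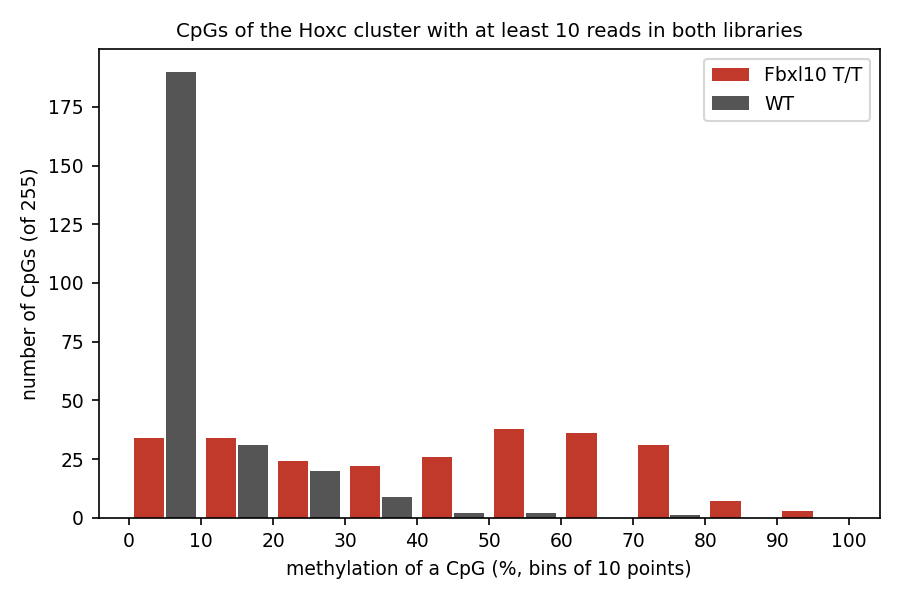
Number of the 255 tested CpGs of the cluster in bins of 10 percentage points of methylation, for Fbxl10 T/T (red, left bar of each pair) and WT (grey). WT piles up in the lowest bin with 190 CpGs, and Fbxl10 T/T has 34 there and spreads over the whole range.

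A short stretch between the windows that rose, picked out after the values were seen, did not share the difference. The CpG that fell, at position 102794227, stood at 9.68% of 31 reads in Fbxl10 T/T and 36.4% of 55 reads in WT (adjusted p = 0.0444, Fisher's exact test). All 3 tested CpGs of its window lay between 9.68% and 32.3% in Fbxl10 T/T and between 29.1% and 36.4% in WT. Each had 31 reads in Fbxl10 T/T and 55 in WT, so they may come from the same reads. The next measured window, at 102796001, had 2 tested CpGs, at 3.80% and 14.5% in Fbxl10 T/T and within 7.69% to 12.9% in WT. Both windows had too few CpGs at 10 reads for the window test above. Summed over CpGs with any reads in both libraries, 102794001 stood at 15.5% in Fbxl10 T/T and 32.2% in WT. The difference was -16.7 points (-25.4 to -6.51; adjusted p = 0.00444, Fisher's exact test), short of the size threshold. In the same way 102796001 differed by -2.11 points (-7.59 to 4.21). Of 25 windows of the cluster summed so, 20 rose and 0 fell, where 25.5% and 2.66% of all such windows did. Of all 14 windows with 1 to 4 tested CpGs, 11 were higher and 3 lower in Fbxl10 T/T, with differences between -16.1 and 63.5 points and a median of 28.4, and 18 more windows had no CpG with enough reads in both libraries.

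Over the cluster as a whole, the Polycomb mutants did not show the rise seen in Fbxl10 T/T. Summed over the CpGs with reads in both libraries, Ring1B -/- stood at 6.27% and WT at 5.68%, a difference of 0.586 points (-1.03 to 2.66). Eed -/- stood at 7.16% and WT at 5.87%, a difference of 1.29 points (-0.351 to 3.33). Ezh2 -/- stood at 7.74% and WT at 6.25%, a difference of 1.5 points (-0.252 to 3.65). Each interval included 0, whereas with CpGs inside CCGG kept the differences were 2.99, 4.38 and 4.38 points. Fbxl10 T/T, summed the same way, stood at 38.1% and WT at 6.70%, a difference of 31.4 points (30.4 to 32.4), and all 4 comparisons share the WT library. At cytosines outside CpG in the cluster 0.710% of reads showed C for Fbxl10 T/T, 1.36% for Ring1B -/-, 2.62% for Eed -/-, 1.48% for Ezh2 -/- and 0.651% for WT. The 3 Polycomb mutants were thus above WT at these cytosines, whereas at CpGs outside CCGG each interval of the difference included 0. The part of this in the differences at CpGs was not tested.

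Single windows gave few differences. For windows with at least 5 CpGs and 30 reads in each library, reads were summed before the level was taken. Of 8, 7 and 7 windows of the cluster in Ring1B -/-, Eed -/- and Ezh2 -/-, 0 rose and 0 fell against WT, where 1.3%, 0.352% and 0.211% of all windows rose and 0.554%, 0.671% and 0.787% fell. The largest difference in Ring1B -/- was at 102752001, with 14.3% of 49 reads in Ring1B -/- and 2.69% in WT, a difference of 11.6 points (4.26 to 24.0; adjusted p = 0.010, Fisher's exact test) that stayed below the size threshold. In Eed -/- it was at 102751001, with 6.59% in Eed -/- and 0.813% in WT, a difference of 5.78 points (adjusted p = 0.00517, Fisher's exact test). In Ezh2 -/- it was at 102821001, with 9.09% in Ezh2 -/- and 3.36% in WT. The windows had a median of 50.5 reads in Ring1B -/-, 51 in Eed -/- and 64 in Ezh2 -/-, and in Ezh2 -/- the interval of the difference included 0 in all 7 windows. Called at 10 points, the window at 102752001 would count as a rise in Ring1B -/-. The window at 102809001 was too thinly read for this test, yet it stood at 45.8% of 24 reads in Ring1B -/- (27.9 to 64.9), 50% of 24 in Eed -/- (31.4 to 68.6), 38.9% of 36 in Ezh2 -/- (24.8 to 55.1) and 21.7% of 457 in WT (18.1 to 25.7). The intervals of Ring1B -/- and Eed -/- lay above that of WT and overlapped with that of Fbxl10 T/T, at 55.6% (49.4 to 61.7). In Ring1B -/- and in Eed -/- the 24 counts came from 6 CpGs that lie close together. The same read can thus count several times, so these intervals are too narrow and the separation from WT is uncertain. Over all windows of the cluster with any reads, whatever their depth, the mutant's interval lay above that of WT in 4 of 29 for Ring1B -/-, 3 of 29 for Eed -/- and 0 of 28 for Ezh2 -/-, and below it in 0. No such share was computed outside the cluster, so these counts have no background. The Ring1B -/- window at 102787001 among them held 1 read. Here and at 102809001 each library was summed over the CpGs it covered, which differ between libraries.

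Set directly against the Polycomb mutants, which leaves the WT library out, Fbxl10 T/T was higher. Over the CpGs read in both, Fbxl10 T/T stood at 36.4% and Ring1B -/- at 6.25%, a difference of 30.1 points (27.8 to 32.0). Against Eed -/- the levels were 36.1% in Fbxl10 T/T and 7.18% in Eed -/-, a difference of 28.9 points (26.7 to 30.8). Against Ezh2 -/- they were 37.8% in Fbxl10 T/T and 7.75% in Ezh2 -/-, a difference of 30.1 points (27.7 to 32.1). By window, 6 of 8 were higher than in Ring1B -/-, 5 of 7 than in Eed -/- and 6 of 7 than in Ezh2 -/-, with 0 lower in each, where 20.8%, 22.1% and 21.7% of all windows were higher and 0.451%, 0.298% and 0.189% lower. These 3 comparisons share the Fbxl10 T/T library. With at least 60 reads required, few windows qualified, and 0, 1 and 3 were higher than in Ring1B -/-, Eed -/- and Ezh2 -/-. At the 114 CpGs read in all 5 libraries, the levels were 36.3% for Fbxl10 T/T, 5.68% for Ring1B -/-, 6.61% for Eed -/-, 6.93% for Ezh2 -/- and 5.58% for WT.

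**Figure D4:**
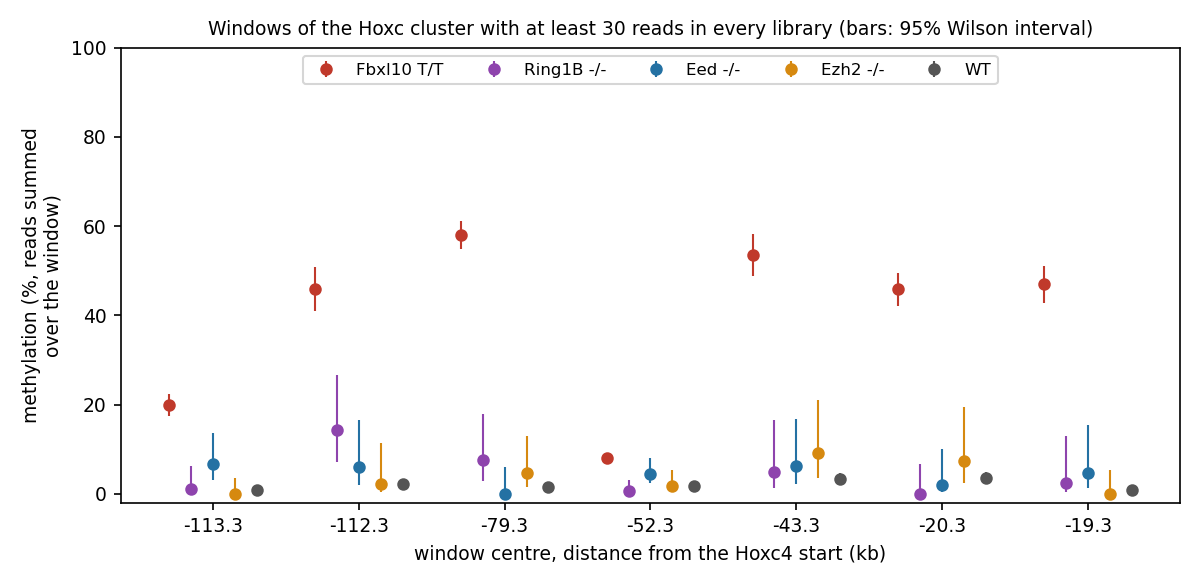
Summed methylation (percent, with 95% Wilson intervals) of the 7 windows with at least 30 reads in every library, by distance of the window centre from the Hoxc4 start in kb, for Fbxl10 T/T, Ring1B -/-, Eed -/-, Ezh2 -/- and WT. Each level is summed over the CpGs its library covers. Fbxl10 T/T lies between 45.8% and 58.1% in 5 windows, at 19.8% and 7.95% in the other 2, and the other libraries lie at or below 14.3%.

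The 7 windows with 30 reads in every library give the levels side by side, each summed over the CpGs its library covers. These CpGs differ. At 102785001 they were 28 for Fbxl10 T/T, 19 for Ring1B -/- and 16 for Ezh2 -/-. At the CpGs shared with Ring1B -/- Fbxl10 T/T stood at 65.8% there, and at those shared with Ezh2 -/- at 50.9%. At 102785001 the levels were 58.1% for Fbxl10 T/T, 7.55% for Ring1B -/-, 0 of 60 reads for Eed -/- (up to 5.0%), 4.69% for Ezh2 -/- and 1.64% for WT. At 102821001 they were 53.6% for Fbxl10 T/T, 5.0% for Ring1B -/-, 6.25% for Eed -/-, 9.09% for Ezh2 -/- and 3.26% for WT. At the low window 102812001 they were 7.95% in Fbxl10 T/T (6.83 to 9.23), 0.565% in Ring1B -/-, 4.42% in Eed -/- (2.42 to 7.95), 1.86% in Ezh2 -/- and 1.69% in WT. Fbxl10 T/T was highest in all 7 windows, and at the low window its interval overlapped with that of Eed -/-. Among the Polycomb mutants and WT the order changed from window to window. By stretch, the last one, from Mir615 through Hoxc4, had 54.4% of 878 reads in Fbxl10 T/T, 9.52% of 63 in Ring1B -/-, 7.69% of 65 in Eed -/-, 21.9% of 64 in Ezh2 -/- (13.5 to 33.4) and 14.8% of 1747 in WT (13.2 to 16.6), with intervals of Ezh2 -/- and WT overlapping.

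Other Hox genes were read the same way for comparison with Hoxc4. Of the 30 Hox genes of the Hoxa, Hoxb and Hoxd clusters, 21 had a reference promoter, 13 could be placed and 11 had at least 5 tested CpGs within 1000 bases of the start. Of these, 8 rose and 0 fell in Fbxl10 T/T, with a median difference of 34.3 points, against 55.2 points at Hoxc4, whose 5 tested CpGs all lie after the start. No share over all promoters was computed, and over all 1-kb windows 25.2% rose and 1.66% fell. Hoxa6 (17.4% in WT) and Hoxd12 (22.9% in WT), which both rose, fall in the class of 10 to 30% in WT. In that class 73.5% of all windows rose, against 20.8% of those under 10% in WT. With only 250 bases before to 50 after the start counted, 4 rose and Hoxc4 had no tested CpG. Hoxa11 differed most in Hoxa, with 64.7% in Fbxl10 T/T and 2.38% in WT, and Hoxa5 least, with 4.31% in Fbxl10 T/T and 2.45% in WT. In Hoxd the largest difference was at Hoxd1, with 61.5% in Fbxl10 T/T and 4.60% in WT, and the smallest at Hoxd3, with 7.30% in Fbxl10 T/T and 2.69% in WT. In Hoxb only Hoxb1 was placed, with 2 tested CpGs, at a mean of 55.3% in Fbxl10 T/T and 38.8% in WT. The Hoxc4 start thus lay within the range of the other Hox starts, which, like the windows of the Hoxc cluster, included places that stayed near the WT level.

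**Figure D5:**
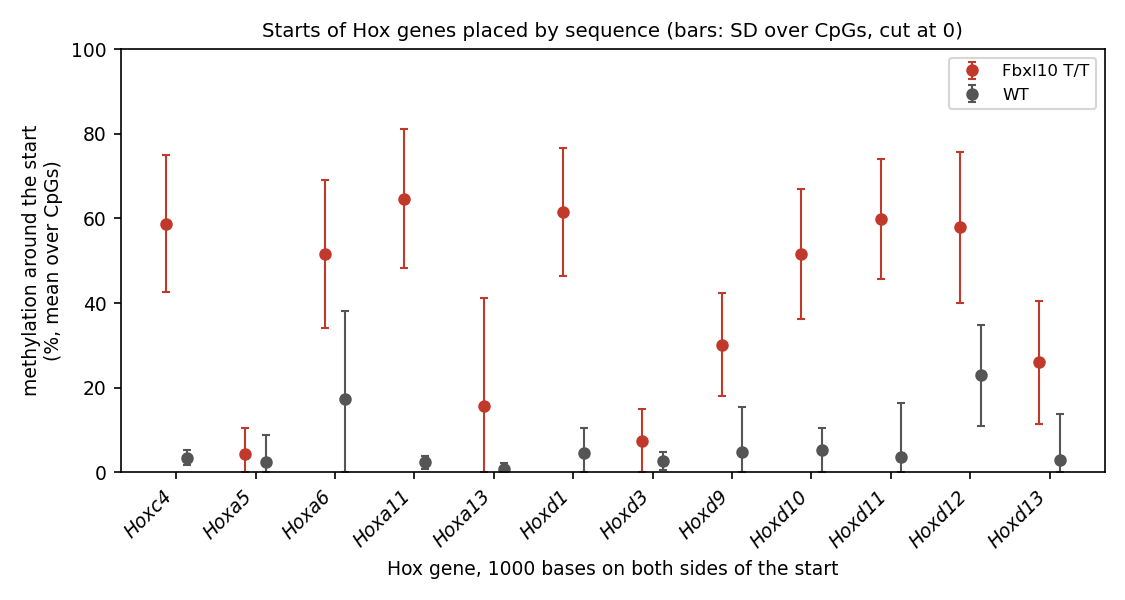
Methylation within 1000 bases of the start of Hoxc4 and of 11 other Hox genes (percent, mean over CpGs, bars SD over CpGs drawn no lower than 0), with Fbxl10 T/T in red and WT in grey. Hoxc4, at 58.8% against 3.51%, stands among the higher ones, and Hoxa5 and Hoxd3 stay below 10% in both libraries.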

How the data were processed

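DNA methylation was taken from 5 deposited RRBS tables, 1 for each genotype, with groups taken from the genotype labels. Per the submitters' processing notes, BSMAP 2.74 and build mm9 were used; trimming and duplicate removal are not given in the sources used here. Per the file headers, each row holds 1 cytosine with raw read counts (C, and C or T), an expected count (C or T reads scaled by the authors by opposite-strand reads) and a fraction, C reads over that expected count. The deposited CpG rows sum both strands.

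Levels were computed from the raw counts, at CpGs outside CCGG with at least 10 reads in both libraries. Summed levels, used for every Polycomb mutant, took CpGs with any reads in both libraries, or in the library itself where so stated. To be tested, windows of 1000 bases needed 5 CpGs, and 30 summed reads in each library where levels were summed. Fisher's exact tests were adjusted by Benjamini-Hochberg over all windows, or all CpGs, on 19 autosomes and X, and promoters together with the windows. The tests were tested on simulated data first. The named windows are the 8 called ones with the largest rise, any called fall and the 3 smallest differences. Alternatives changed read minimum, CCGG, window, threshold, depth and denominator. Promoters of RefSeq GRCm38.p6 were placed by letters alone (at least 20 matched, 0 mismatched, 1 place), and no coordinates were converted. The members and lists were chosen with earlier results of these data known. Python 3.11.15, numpy 2.4.6, pandas 2.3.3, scipy 1.17.1 and matplotlib 3.10.9 were used. The sequence of 1 further stretch is not reported here.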

Additional observations from a re-analysis of the deposited data

Results flagged for a closer look

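CpGs inside CCGG, left out of every level above, were more methylated than in WT in all 4 mutants at the CpGs read in both libraries. They stood at 55.3% in Fbxl10 T/T, against 27.2% in WT, a difference of 28.1 points (95% interval 26.6 to 29.6). They stood at 34.8% in Ring1B -/-, against 27.1% in WT (7.70 points, 3.30 to 12.4), at 34.3% in Eed -/-, against 26.2% in WT (8.12 points, 4.15 to 12.3), and at 35.2% in Ezh2 -/-, against 25.9% in WT (9.31 points, 5.19 to 13.6). Unlike at the CpGs outside CCGG, the intervals of the 3 Polycomb mutants lay above 0, and the difference between the 2 kinds of CpG was not tested. Over all chromosomes the CpGs inside CCGG were at 48.0% for Fbxl10 T/T, 50.7% for Ring1B -/- and for Eed -/-, 47.5% for Ezh2 -/- and 46.3% for WT, all reads taken.

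At cytosines outside CpG in the cluster, more reads showed C than in WT (0.651%, 0.590 to 0.719) in the libraries of Ring1B -/- (1.36%, 0.962 to 1.91), Eed -/- (2.62%, 2.10 to 3.27) and Ezh2 -/- (1.48%, 1.09 to 2.01). The same libraries were above WT over all chromosomes, at 2.62% for Ring1B -/-, 2.83% for Eed -/-, 2.10% for Ezh2 -/- and 1.02% for WT.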

How the results depend on the processing

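With 1 library for each genotype no replicate could be left out. No paired analysis was possible because each genotype has 1 library. The 18 windows of the cluster that rose in Fbxl10 T/T against WT ranged from 13 (threshold of 30 points) to 24 (CCGG kept) over the alternatives, with 0 falls in each, and the window at 102751001 was called at 10 points. No result changed direction. With CpGs inside CCGG kept, the mean difference of the windows was 36.2 points, 227 CpGs rose and 2 fell. The summed differences from WT were then 2.99 in Ring1B -/-, 4.38 in Eed -/- and 4.38 in Ezh2 -/-, 1 window rose in Eed -/-, and Fbxl10 T/T exceeded Ring1B -/- by 26.1, Eed -/- by 24.7 (9 windows) and Ezh2 -/- by 26.0 points. At least 3 CpGs gave a mean difference of 36.6 points. Thinned to 10 reads, 18 CpGs rose and 0 fell, and 16 windows still rose, with no share over all CpGs computed at that depth. With promoters of 250 bases before to 50 after the start, 4 other Hox promoters rose and Hoxc4 had no value. At 10 points 1 window rose in Ring1B -/-. At 15 summed reads 1 window rose in Eed -/- and 10 were higher in Fbxl10 T/T than in Eed -/-. At 60 summed reads 0 windows were higher than in Ring1B -/-, 1 than in Eed -/- and 3 than in Ezh2 -/-, since fewer windows qualify. With at least 5 reads per CpG, Fbxl10 T/T exceeded Eed -/- by 24.96 points, and Eed -/- exceeded WT by 2.42. The causes of the other shifts were not tested. The remaining counts stayed within 1.5 times their value, and the other results called stayed called. Depth limits the Polycomb mutants most, at a median of 3 reads per CpG.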
